A study of Homo sapiens with 27 samples.

Results

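The 44 genes described here encode proteins that copy DNA and enzymes that make deoxynucleotides. Taken as a named list, they were chosen with earlier results of these data known. They were sorted into 8 roles, from the origin recognition complex to nucleotide synthesis. All 44 have a row among the 60619 genes of the deposited count table, and all 44 passed the filter on low counts in every comparison, with at least 321 estimated counts in each library. They were followed through 27 RNA-Seq libraries of MM134 and SUM44, 2 human cell lines of invasive lobular carcinoma (ILC), in 9 groups of 3.

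MM134 was present as parental cells and as the LTED (long-term estrogen-deprived) variants LTED-A, -B, -D and -E. SUM44 was present as SUM44F parental cells, as SUM44PE parental cells and as LTED-A and LTED-B. SUM44PE is the original stock, SUM44F was made from it by adaptation to another serum-containing medium, and the study took SUM44F as the parental line of both SUM44 variants. LTED variants had been kept without estrogen over months until clones grew out, whereas parental cells had spent 3 days without hormones at collection. No group was therefore collected in the presence of estrogen, and each LTED fold change sets long against short deprivation. Replicates were wells of a plate, so p-values measure only the spread between these samples, which may be technical.

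Library totals ran from 28583554 to 134882175 estimated counts. In SUM44 LTED-A, replicates 2 and 3 agreed within sampling noise, with a chi-square of 0.312 per degree of freedom against 2.35 to 58.3 in the 26 other replicate pairs, and were counted as 1 sample, so that this variant has n = 2. In SUM44F parental, replicate 3 was the most unlike, at 42.87 and 39.25 against replicates 1 and 2, which were at 14.17 against each other. Luminal epithelial markers were high in every group, at a summed level of 4378 to 8458 normalized CPM, counts scaled to a common library size. Replicate 1 of SUM44F parental stood apart by its fibroblast markers: COL1A1 was at 85.9 normalized CPM against 7.11 and 5.77 in the other two, and LUM at 57.2 against 0.0 and 0.0111. Endothelial markers summed to 25.8 to 40.5 normalized CPM in SUM44F and to 2.80 to 4.51 in the SUM44 variants, mostly from PECAM1, while CDH5 was under 1 in all of them. Immune markers summed to 0.286 to 0.778 in MM134 parental and to 2.50 to 15.4 in the MM134 variants, the highest being LTED-A, and myoepithelial markers were under 4 in every group. The part of these markers in the results was not tested, but counts of genes are also given without replicate 1 of SUM44F parental.

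Cells license DNA for replication by placing the origin recognition complex (ORC), CDC6 and CDT1 on origins, which load the MCM2-7 helicase as an inactive ring. The kinase made of CDC7 and DBF4, with MCM10 and the GINS complex, turns the ring into a moving helicase. Primase and polymerase alpha then start each strand, PCNA clamps polymerases delta and epsilon to the template, and FEN1 and LIG1 finish the lagging strand. Thymidylate synthase and ribonucleotide reductase supply the deoxynucleotides, and most of these genes are known E2F targets that are transcribed when cells enter S phase. In estrogen receptor-positive breast cancer cells, estrogen is known to drive that entry.

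In SUM44, long-term deprivation came with higher levels of the replication genes across nearly the whole set. Of the 44 genes, 32 rose in LTED-A and 35 in LTED-B against SUM44F parental, with a fold change over 1.5 and an adjusted p below 0.001 (edgeR's quasi-likelihood test, Benjamini-Hochberg adjustment over all genes), and 0 fell in either. At an unadjusted p under 0.05, 1 gene was lower in LTED-A and 0 in LTED-B. Counts at an unadjusted p, here and below, were made for the 44 genes only, so no share of all genes stands beside them. DESeq2 called 34 and 35 higher and 0 lower. Of all 26788 genes it called 2314 and 2792 higher and 2224 and 2502 lower. Of all 26834 genes tested by edgeR, 7.26% were called higher and 8.41% lower in LTED-A, and 9.19% higher and 9.58% lower in LTED-B. The median log2 fold change of the 44 genes was 0.80 in LTED-A and 0.91 in LTED-B, where the medians of all genes tested were -0.06 and -0.09. Both variants were compared with the same SUM44F libraries, so their values are not independent of each other. Every LTED-B library exceeded every parental library for 43 of the 44 genes, and every LTED-A sample did so for 39. How many of all genes separate in this way was not counted, so these counts have no background.

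**Figure D1:**
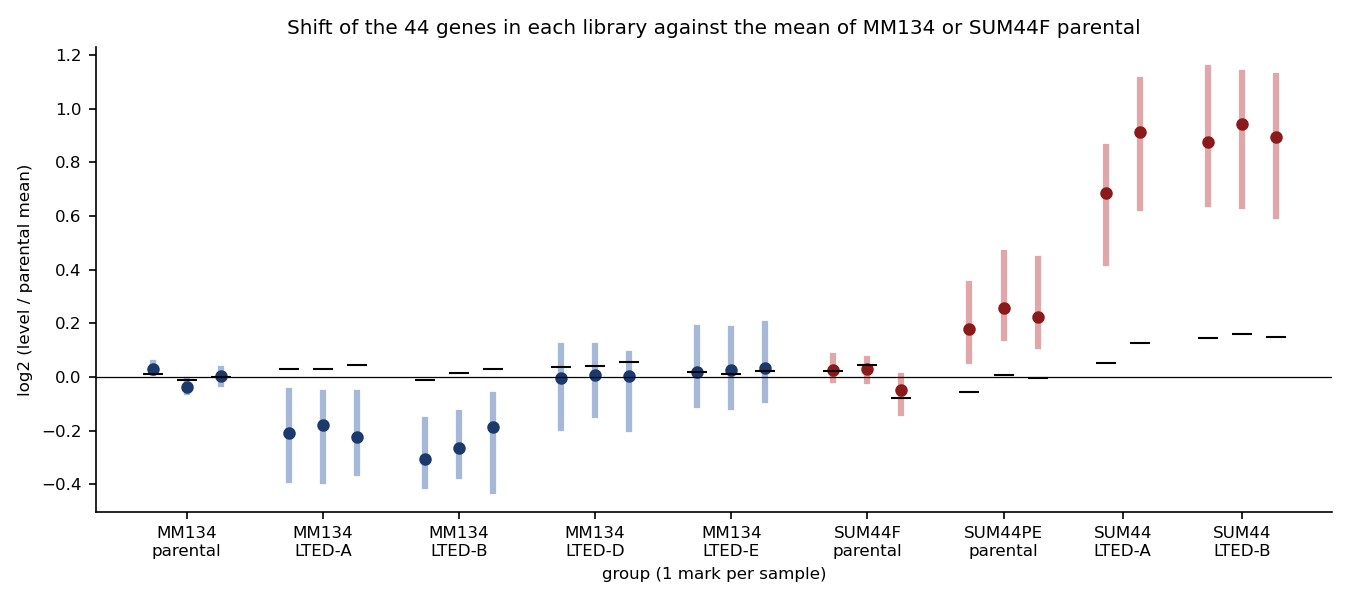
For each sample, the point is the median over the 44 genes of the log2 ratio of the normalized level to the mean of the parental group (MM134 parental, or SUM44F parental for all SUM44 groups), the bar spans the interquartile range, and the short black line is the median of all genes of at least 5 CPM. The SUM44 LTED samples sit at 0.69 to 0.94, MM134 LTED-A and LTED-B at -0.31 to -0.18, and MM134 LTED-D and LTED-E near 0.

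The shift was seen in each library on its own. Against the mean of SUM44F parental, the median log2 ratio over the 44 genes was 0.69 and 0.91 in the LTED-A samples and 0.87, 0.94 and 0.89 in LTED-B, whereas single parental libraries lay between -0.05 and 0.03. Over all genes of at least 5 CPM the same medians were 0.05 to 0.16 in the SUM44 LTED samples. Without the SUM44F replicate that carried fibroblast markers, 33 genes rose in LTED-A and 35 in LTED-B. Without SUM44F replicate 3, RPA1 and RRM1 were no longer called in LTED-A, nor RPA2, RPA3 and LIG1 in LTED-B. A change of parental stock moved both counts further. With SUM44PE in place of SUM44F as the reference, 19 rose in LTED-A, and 21 rose and 1 fell in LTED-B, with medians over the 44 genes of 0.51 and 0.56. Among all 25815 genes in that fit, 6.93% were called higher and 8.77% lower in LTED-A, and 10.4% higher and 11.5% lower in LTED-B. Calls that this reference ended are named under each role. In bulk RNA, a larger share of cells in S phase and more mRNA per cell cannot be told apart.

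Promoters were read for the genes that moved most and least in SUM44, since the members moved together there. The RefSeq table on GRCh38.p14 held 38 of the 44 genes; GINS4, RPA2, RPA3, POLD3, MCM4 and MCM5 are not in it. The following are the 250 bases before the RefSeq start of 5 of the 6 genes with the largest mean log2 fold change over both SUM44 variants, written 5′ to 3′ on the gene's strand. Capitals mark matches, on either strand, to the E2F letters TTTCCCGC, TTTGGCGC, TTTGGCGG and TTTCGCGC, to CCAAT and to TTTGAA.
GINS3, chr16:58392221-58392470, plus strand: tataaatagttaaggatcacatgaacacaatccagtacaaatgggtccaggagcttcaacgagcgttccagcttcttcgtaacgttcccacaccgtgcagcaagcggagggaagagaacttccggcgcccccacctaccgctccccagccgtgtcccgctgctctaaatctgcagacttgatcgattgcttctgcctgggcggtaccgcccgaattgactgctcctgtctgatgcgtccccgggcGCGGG
TYMS, chr18:657403-657652, plus strand: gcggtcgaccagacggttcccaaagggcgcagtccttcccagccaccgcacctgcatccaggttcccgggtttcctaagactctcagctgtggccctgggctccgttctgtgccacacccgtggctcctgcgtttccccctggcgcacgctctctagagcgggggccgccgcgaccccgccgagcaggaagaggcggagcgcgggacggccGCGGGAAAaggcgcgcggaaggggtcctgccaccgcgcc
CDT1, chr16:88803539-88803788, plus strand: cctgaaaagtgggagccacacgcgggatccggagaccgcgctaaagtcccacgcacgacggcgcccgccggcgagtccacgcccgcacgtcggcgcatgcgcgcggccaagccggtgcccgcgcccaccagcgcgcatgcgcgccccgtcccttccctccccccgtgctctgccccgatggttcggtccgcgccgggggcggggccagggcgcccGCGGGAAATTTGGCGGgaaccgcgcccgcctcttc
POLA2, chr11:65261712-65261961, plus strand: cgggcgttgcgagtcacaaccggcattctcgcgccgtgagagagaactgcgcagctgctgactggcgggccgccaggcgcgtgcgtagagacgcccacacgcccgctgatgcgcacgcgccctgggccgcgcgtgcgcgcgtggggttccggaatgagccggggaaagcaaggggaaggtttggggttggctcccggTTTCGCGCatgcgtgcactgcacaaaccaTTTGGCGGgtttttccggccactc
MCM10, chr10:13161308-13161557, plus strand: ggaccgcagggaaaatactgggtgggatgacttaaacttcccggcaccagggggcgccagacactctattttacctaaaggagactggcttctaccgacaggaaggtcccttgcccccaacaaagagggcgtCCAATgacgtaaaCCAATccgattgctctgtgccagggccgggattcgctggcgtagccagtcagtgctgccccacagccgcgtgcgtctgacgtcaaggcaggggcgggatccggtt
In GINS3 the last 5 bases before the start open a match to TTTCCCGC on the opposite strand that runs on past the start. In CDT1 a match on the opposite strand, 35 bases before the start, is followed at once by a match to TTTGGCGG, and POLA2 holds TTTCGCGC 53 and TTTGGCGG 24 bases before the start. TYMS has a match 39 bases before the start. In MCM10 the capitals are CCAAT only, and its match to TTTGGCGG lies 6 bases past the start, outside the printed stretch.

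For comparison, these are the same stretches of the 3 genes with the smallest absolute mean change in SUM44.
ORC4, chr2:148021552-148021801, minus strand: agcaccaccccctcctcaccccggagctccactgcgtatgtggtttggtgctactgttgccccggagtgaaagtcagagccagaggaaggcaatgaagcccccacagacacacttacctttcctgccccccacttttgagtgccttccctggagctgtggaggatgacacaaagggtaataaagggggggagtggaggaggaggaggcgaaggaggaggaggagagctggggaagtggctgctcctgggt
ORC2, chr2:200963661-200963910, minus strand: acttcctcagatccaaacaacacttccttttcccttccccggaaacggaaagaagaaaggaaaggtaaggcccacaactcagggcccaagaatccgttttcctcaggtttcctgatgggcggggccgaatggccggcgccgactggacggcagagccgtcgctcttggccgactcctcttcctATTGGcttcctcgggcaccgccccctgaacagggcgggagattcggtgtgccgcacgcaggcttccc
RFC1, chr4:39366363-39366612, minus strand: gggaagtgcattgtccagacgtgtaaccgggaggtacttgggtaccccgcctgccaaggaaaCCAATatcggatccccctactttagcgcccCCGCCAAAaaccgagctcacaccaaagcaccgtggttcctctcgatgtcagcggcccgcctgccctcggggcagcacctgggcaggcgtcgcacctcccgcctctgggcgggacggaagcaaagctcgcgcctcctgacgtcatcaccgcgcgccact
ORC4 has no match, ORC2 has CCAAT on the opposite strand, and RFC1 has CCAAT and, 158 bases before the start, TTTGGCGG on the opposite strand. A match describes letters only and is not a bound site, and a stretch without one says nothing of E2F.

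Over the whole table entry, 250 bases before to 50 after each start and any start of a gene, 21 of the 38 members (55.3%) held at least 1 of the 4 E2F letter runs. The share was 4.05% of all 27305 genes in the table and 6.03% of the 14308 that were tested in SUM44. Within the set, 16 of the 28 members called higher in both SUM44 variants held such a run, and 5 of the 10 other members. In the 200 bases before the start, 11 of these 28 and 5 of these 10 did. The letters thus did not clearly separate the members that rose from the others, and the difference was not tested. TTTCCCGC stood in 26.3% of members and 1.98% of all genes, TTTGGCGC in 18.4% and 0.795%, TTTGGCGG in 13.2% and 0.809%, and TTTCGCGC in 13.2% and 0.63%. These runs can overlap each other on opposite strands, as TTTGGCGC and TTTCGCGC do before MCM6, and were then counted for each. CCAAT stood in 57.9% of members and 39.7% of all genes, and TTTGAA in 5.26% and 18.2%.

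The origin recognition complex had the lowest median change of the 8 roles in both SUM44 variants. Of its 6 genes, ORC1, ORC3 and ORC6 were called higher in LTED-A, and ORC1 and ORC6 in LTED-B. ORC1, the subunit whose level is known to cycle, was at 11.7, 10.6 and 10.1 normalized CPM in SUM44F parental, at 22.3 and 23.5 in LTED-A, and at 27.01, 27.04 and 26.6 in LTED-B. All variant samples lay above all parental ones, and the log2 fold change was 1.09 ± 0.09 (SE, adjusted p = 2.65e-07) in LTED-A and 1.32 ± 0.09 (adjusted p = 9.96e-09) in LTED-B. ORC4, a subunit of the stable core, was at 86.3, 92.7 and 93.4 in parental, 91.4 and 90.1 in LTED-A, and 96.9, 90.2 and 86.7 in LTED-B. These ranges overlapped, and its log2 fold changes were 0.00 ± 0.08 and 0.01 ± 0.07. Its printed promoter held none of the searched letters, and any link of these letters to its level was not tested. ORC2 and ORC5, also core subunits, had log2 fold changes of 0.04 to 0.41 and passed in neither variant. The ORC3 call in LTED-A rested on the merged replicates 2 and 3, since the log2 fold change was 0.43 without them and not called. That call was also lost in a fit of only the groups compared, at 0.63. Against SUM44PE, ORC1 was the 1 gene of the complex still called in each variant, with ORC6 at 0.36 and 0.31 and ORC3 at 0.05 in LTED-A.

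All 3 loading genes rose in both variants, also against SUM44PE. CDT1, which brings the helicase to origins, was at 17.2, 17.9 and 15.2 normalized CPM in SUM44F parental, at 42.2 and 38.5 in LTED-A, and at 39.8, 46.2 and 43.98 in LTED-B. Every variant sample lay above every parental one, with log2 fold changes of 1.27 ± 0.10 (adjusted p = 7.68e-08) and 1.37 ± 0.09 (adjusted p = 1e-08). CDC6, the ATPase that acts with CDT1, was at 28.1, 27.6 and 28.7 in parental, 46.4 and 57.5 in LTED-A, and 68.7, 66.4 and 67.3 in LTED-B. GMNN, which encodes the CDT1 inhibitor geminin, was at 26.0, 27.3 and 28.5 in parental, 42.7 and 49.5 in LTED-A, and 49.7, 49.2 and 50.4 in LTED-B. The inhibitor thus rose beside its target, by log2 0.76 ± 0.09 (adjusted p = 5.63e-06) and 0.87 ± 0.08 (adjusted p = 4.24e-07), with no overlap between groups. The median of its 40 nearest genes was also higher in LTED-A, at 0.59, and their part in its change was not tested.

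Of the 6 genes of the MCM2-7 ring, 5 rose in LTED-A and 4 in LTED-B, with log2 fold changes of 0.43 to 1.66 and 0.47 to 1.17. MCM4 was the member that passed in neither variant: it was at 113, 117 and 110 normalized CPM in SUM44F parental, 142 and 163 in LTED-A, and 151, 160 and 159 in LTED-B. Its groups did not overlap, but its log2 fold changes of 0.43 ± 0.09 (adjusted p = 0.00105) and 0.47 ± 0.08 (adjusted p = 0.000188) were below the fold minimum. MCM3 was at 168, 166 and 139 in parental, 281 and 327 in LTED-A, and 220, 224 and 222 in LTED-B, and was called in LTED-A at 0.95 ± 0.10 (adjusted p = 2.87e-06). The count depended on the parental stock: against SUM44PE, 2 of the 6 rose in LTED-A and 1 in LTED-B. MCM6 and MCM7 then had values of 0.48 and 0.42 in LTED-A and of 0.45 and 0.52 in LTED-B, and MCM5 of 0.21 in LTED-A. MCM5 had the largest LTED-A change of all 44 genes and is described with the differences between variants.

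All 7 firing genes rose in both variants against SUM44F. Against SUM44PE 6 rose in LTED-A and 5 in LTED-B, as GINS2 was at 0.49 and 0.58 and GINS4 at 0.44 in LTED-B. GINS3, a subunit of the 4-part GINS complex, was at 13.1, 13.6 and 12.7 normalized CPM in SUM44F parental, at 36.5 and 45.0 in LTED-A, and at 56.0, 58.4 and 54.1 in LTED-B. Its log2 fold changes, 1.64 ± 0.10 (adjusted p = 3.84e-09) and 2.09 ± 0.09 (adjusted p = 8.69e-11), gave the highest mean over both variants among the 44 genes. Its promoter, printed with the others, carries E2F letters at the start itself, and any link of these letters to its change was not tested. GINS1, GINS2 and GINS4, its partners, rose by log2 0.84 to 1.23 over both variants. CDC7, the kinase subunit, was at 10.9, 10.8 and 10.2 in parental, 15.2 and 17.5 in LTED-A, and 19.9, 20.6 and 20.3 in LTED-B. Its log2 fold changes were 0.63 ± 0.10 (adjusted p = 0.000113) and 0.93 ± 0.09 (adjusted p = 6.05e-07), and the LTED-A call was lost without the merged replicates, at 0.52. A fit of only the groups compared lost it too, at 0.64. DBF4, the activating subunit, and MCM10, which acts on the loaded helicase, rose by 1.02 to 1.25 in both.

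Among polymerase and primase genes, 6 of 9 rose in LTED-A and 7 of 9 in LTED-B. POLA2, the accessory subunit of polymerase alpha, was at 13.1, 14.0 and 12.5 normalized CPM in SUM44F parental, at 37.2 and 36.2 in LTED-A, and at 26.0, 27.8 and 25.6 in LTED-B. The variants lay above parental without overlap, by log2 1.48 ± 0.09 (adjusted p = 4.55e-09) and 1.00 ± 0.08 (adjusted p = 1.03e-07). POLA1, the catalytic subunit of the same enzyme, had log2 fold changes of 0.51 and 0.39 and passed in neither variant. Primase was split too, but here the catalytic subunit was the one called: PRIM1 rose by 0.94 and 1.21. The other subunit, PRIM2, was at 26.6, 25.9 and 25.9 in parental, 34.2 and 42.2 in LTED-A, and 33.8, 32.2 and 33.4 in LTED-B. PRIM2 did not overlap between groups, but its 0.55 ± 0.09 (adjusted p = 0.000269) and 0.34 ± 0.09 (adjusted p = 0.00447) were not called. With replicates 2 and 3 kept separate the former was called, at 0.62, as it was with DESeq2, at 0.59. POLD3, a polymerase delta subunit, was called in LTED-B, at 0.69, and not in LTED-A, at 0.34, and the difference between variants had an adjusted p of 0.00941 and was not called. The call of POLE, the catalytic subunit of polymerase epsilon, in LTED-A, at 0.61, was lost without replicate 1, at 0.51. It was also lost with replicates 2 and 3 kept separate, at 0.58, and in a fit of only the groups compared, at 0.62. Against SUM44PE, 4 of the 9 rose in LTED-A and 3 in LTED-B: POLE, at 0.24 and 0.27, and POLE2, at 0.21 and 0.38, were no longer called in either, nor POLA2, at 0.52, and POLD3, at 0.51, in LTED-B.

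Clamp, loader and RPA genes rose in 5 of 8 cases in LTED-A and in 7 of 8 in LTED-B. PCNA, the sliding clamp and the most abundant of the 44 per kilobase, was at 169, 161 and 168 normalized CPM in SUM44F parental, at 266 and 348 in LTED-A, and at 320, 328 and 330 in LTED-B. Its log2 fold changes were 0.89 ± 0.11 (adjusted p = 9.13e-06) and 0.97 ± 0.10 (adjusted p = 1.09e-06), and no variant sample reached down to the parental ones. RFC1, the large subunit of the clamp loader, was at 61.5, 61.2 and 58.6 in parental, 64.1 and 77.0 in LTED-A, and 75.5, 74.0 and 71.8 in LTED-B, with log2 fold changes of 0.23 ± 0.09 and 0.29 ± 0.08 that were not called. The smaller loader subunits RFC2, RFC4 and RFC5 rose by 0.71 to 0.92. RPA1, RPA2 and RPA3 form the complex that coats single strands, and all 3 were called in LTED-B at 0.61 to 0.90. RPA1 alone was called in LTED-A, and that call was lost on leaving out either LTED-A sample or SUM44F replicate 3. The RPA2 call in LTED-B was lost without LTED-B replicate 1, at 0.60, without LTED-B replicate 2 or SUM44F replicate 3, at 0.59 each, and with a filter of 10 counts in every sample, at 0.57. The RPA3 call was lost without SUM44F replicate 3, at 0.63. Against SUM44PE, 2 of the 8 genes rose in LTED-A, with PCNA at 0.57, RFC4 at 0.55 and RPA1 at 0.46, and 5 in LTED-B, with RFC2 at 0.54 and RPA2 at 0.41.

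FEN1, which removes the flaps of Okazaki fragments, was at 37.4, 37.2 and 31.8 normalized CPM in SUM44F parental, at 57.4 and 64.9 in LTED-A, and at 79.6, 79.3 and 82.0 in LTED-B. It rose by log2 0.79 ± 0.09 (adjusted p = 4.76e-06) and 1.18 ± 0.08 (adjusted p = 1.87e-08). LIG1, the ligase that seals the fragments, was at 40.9, 41.5 and 33.4 in parental, 54.2 and 60.1 in LTED-A, and 58.4, 61.6 and 60.7 in LTED-B. Its 0.64 ± 0.09 in LTED-B was called (adjusted p = 2.57e-05), and its 0.57 ± 0.10 in LTED-A fell just short of the fold minimum, which it passed without SUM44F replicate 1 or 2, at 0.61 and 0.64. Without SUM44F replicate 3 the LTED-B call was lost, at 0.55. With SUM44PE as reference the LTED-A call of FEN1 was lost, at 0.53, and the LTED-B call of LIG1, at 0.17.

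Of the nucleotide synthesis genes, TYMS rose in both variants. It encodes thymidylate synthase, the target of fluorouracil, and was at 12.0, 10.6 and 10.3 normalized CPM in SUM44F parental, at 33.0 and 26.6 in LTED-A, and at 25.1, 26.5 and 23.8 in LTED-B. The groups did not overlap, and the log2 fold changes were 1.45 ± 0.11 (adjusted p = 6.93e-08) and 1.20 ± 0.10 (adjusted p = 1.75e-07). RRM1, the large subunit of ribonucleotide reductase, was at 182, 177 and 171 in parental, 238 and 296 in LTED-A, and 322, 321 and 311 in LTED-B. It rose by 0.60 ± 0.10 in LTED-A (adjusted p = 0.000228), close to the fold minimum, and by 0.85 ± 0.09 in LTED-B (adjusted p = 2.31e-06). The RRM1 call in LTED-A was lost without the merged replicates, at 0.43, without SUM44F replicate 2 or 3, at 0.61 and 0.60, with 10 counts required in every sample, at 0.58, and in a fit of only the groups compared, at 0.61. With SUM44PE as reference it was lost too, at 0.49, as was that of TYMS in LTED-B, at 0.48. The small subunit, RRM2, lay on opposite sides of parental in the SUM44 variants.

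**Figure D2:**
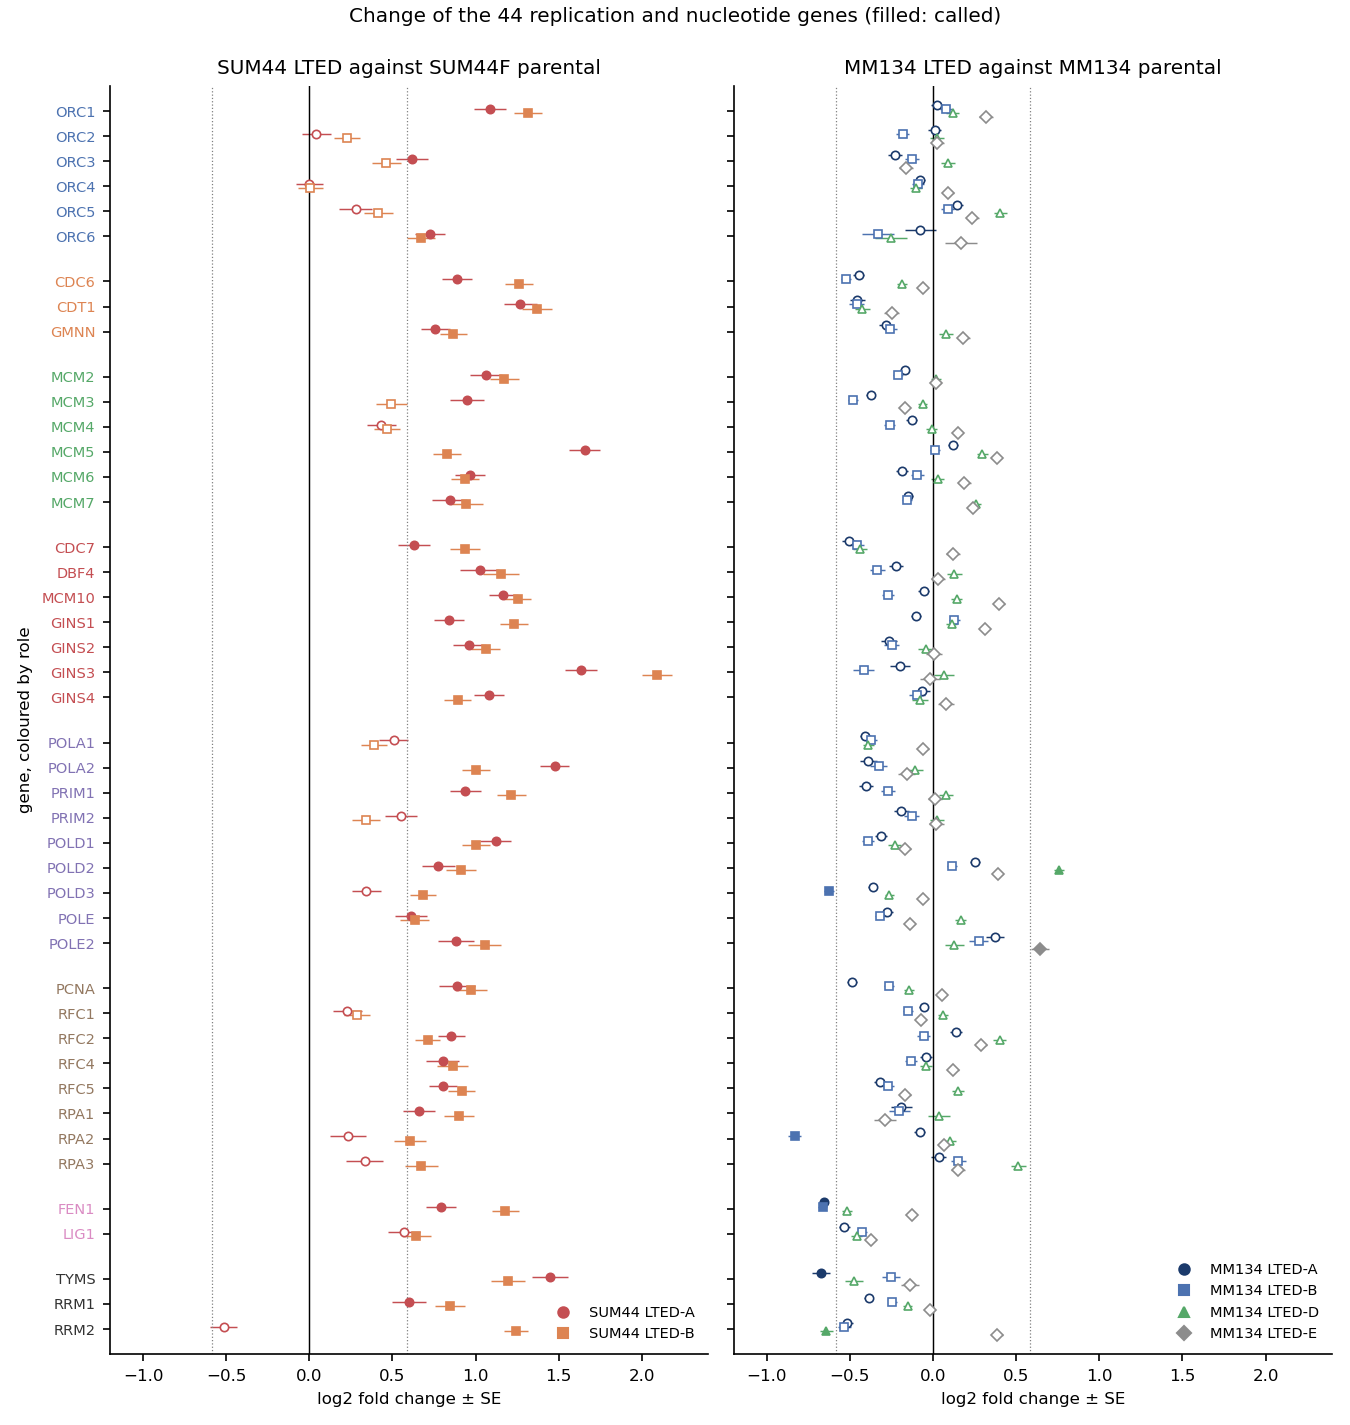
Each gene has a row, coloured by role; the horizontal axis is the log2 fold change against SUM44F parental (left) or MM134 parental (right), with its standard error, filled marks are called genes and dotted lines mark a 1.5-fold change. In SUM44 nearly all marks lie right of 0, up to 2.09 for GINS3, with RRM2 in LTED-A at -0.51 the furthest left; in MM134 they lie on both sides, between -0.83 (RPA2) and 0.76 (POLD2).

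A direct comparison of SUM44 LTED-A with LTED-B called 2 of the 44 genes, MCM5 higher and RRM2 lower in LTED-A, where 4.31% of all genes were called higher and 4.73% lower. RRM2, the subunit whose level is known to limit ribonucleotide reductase outside S phase, was at 54.1, 52.4 and 55.5 normalized CPM in SUM44F parental. It was at 36.3 and 39.2 in LTED-A, below every parental library, and at 132, 129 and 123 in LTED-B, above every one. The log2 difference between variants was -1.76 ± 0.09 (adjusted p = 1.28e-09), made up of -0.51 ± 0.08 (adjusted p = 0.000141, not called) in LTED-A and 1.24 ± 0.07 (adjusted p = 2.6e-09) in LTED-B. RRM1, its partner in the enzyme, was called higher in both variants.

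Genes beside RRM2 (chr2:10120698-10211725, hg38) moved with it. The median log2 fold change of the 40 nearest genes with at least 5 CPM, 20 on each side, was -0.43 in LTED-A and 0.40 in LTED-B against parental, and -0.81 between the variants. MCM5 (chr22:35400134-35425431) had such neighbours too. It was at 32.7, 31.2 and 26.3 normalized CPM in SUM44F parental, 91.7 and 97.2 in LTED-A, and 51.1, 54.9 and 53.6 in LTED-B, in 3 ranges that did not overlap. Its log2 fold change was 1.66 ± 0.09 (adjusted p = 2.31e-09) in LTED-A and 0.83 ± 0.09 (adjusted p = 1.43e-06) in LTED-B, and the difference of 0.83 ± 0.09 (adjusted p = 7.92e-06) stood beside a neighbours' median of 0.68. The RRM2 difference less that of its neighbours was -0.95 on the log2 scale, and the MCM5 difference less that of its neighbours was 0.15. Their part in either result was not tested.

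**Figure D3:**
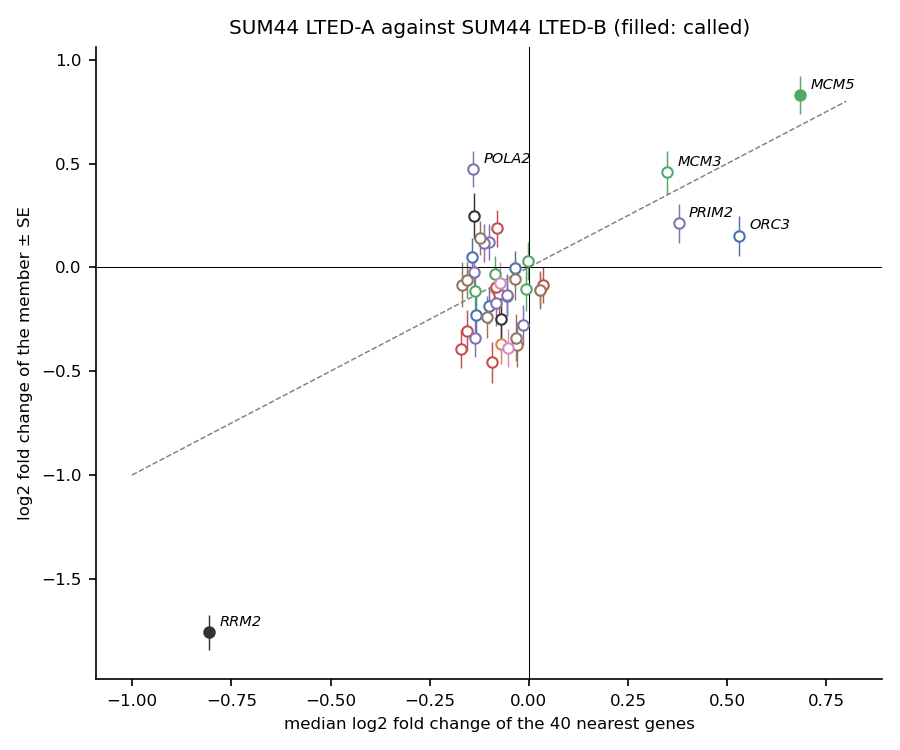
Each point is 1 of the 44 genes, coloured by role as in the plot of changes by gene; the horizontal axis is the median log2 fold change of its 40 nearest genes and the vertical axis its own log2 fold change with the standard error, both for SUM44 LTED-A against LTED-B, and the dashed line marks equal values. RRM2 lies at -0.81 and -1.76 and MCM5 at 0.68 and 0.83, while most genes cluster near 0 on both axes.

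Over the whole set the middle value of the neighbours' medians was 0.14 in LTED-A and 0.18 in LTED-B. Medians of all genes tested were -0.06 and -0.09, and those of all genes of at least 5 CPM were 0.05 to 0.16 in the SUM44 LTED samples. In LTED-A against SUM44F, neighbours' medians were above 0.3 for 2 of the 44 genes and below -0.3 for 1, and in LTED-B they were above 0.3 for 7. After each gene's neighbours were subtracted, the median log2 fold change of the 44 genes was 0.65 in LTED-A and 0.72 in LTED-B, and 41 and 43 genes were higher than their neighbours. Replicate spread within LTED-A also mattered: without the merged replicates 2 and 3, GINS3, RPA2 and RPA3 joined RRM2 as lower in LTED-A than in LTED-B, at -0.63, -0.61 and -0.59.

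SUM44PE cells differed from SUM44F cells in 3 of the 44 genes, MCM5, POLE2 and TYMS, all higher in SUM44PE and 0 lower by edgeR or DESeq2 (1 lower at an unadjusted p under 0.05), where 3.09% of all genes were called higher and 2.95% lower. The median over the 44 genes was 0.23. MCM5 was at 80.2, 83.3 and 80.6 normalized CPM in SUM44PE, between the SUM44F and LTED-A ranges and above that of LTED-B. Its log2 fold change of 1.43 ± 0.08 over SUM44F (adjusted p = 3.23e-10) stood beside a neighbours' median of 0.56. Against SUM44PE, MCM5 was thus lower in LTED-B, by log2 -0.62. TYMS was at 15.7, 18.9 and 19.0 in SUM44PE, above every SUM44F library and below every LTED sample, at 0.70 ± 0.10 (adjusted p = 4.61e-05). POLE2, a polymerase epsilon subunit, was at 11.3, 11.5 and 11.5 in SUM44PE and 6.97, 7.05 and 7.60 in SUM44F, with 12.0 and 14.5 in LTED-A and 14.8, 14.6 and 15.5 in LTED-B. Its increase over SUM44F was 0.66 ± 0.09 in SUM44PE (adjusted p = 3.26e-05), 0.88 in LTED-A and 1.06 in LTED-B.

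In MM134, few of the 44 genes passed the test. Called changes were 2 lower in LTED-A, 3 lower in LTED-B, 1 higher and 1 lower in LTED-D, and 1 higher in LTED-E. No gene was called higher in LTED-A or LTED-B or lower in LTED-E by edgeR or by DESeq2, although at an unadjusted p under 0.05 5, 5 and 13 were. The share of all genes at that unadjusted p was not counted. In those directions DESeq2 called 2627, 2007 and 2608 of all 26054 genes. Of the 26061 genes tested by edgeR, 10.6% were called higher and 10.1% lower in LTED-A, 8.34% and 7.95% in LTED-B, 9.84% and 8.17% in LTED-D, and 8.93% and 10.5% in LTED-E, so each count of called members was a smaller share than among all genes. The 4 variants share the parental libraries. Medians of the 44 genes were -0.19 in LTED-A, -0.25 in LTED-B, 0.02 in LTED-D and 0.03 in LTED-E, where medians of all genes lay between -0.03 and 0.02.

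These MM134 decreases were small but tight between wells. With no minimum on the fold change, 25 of the 44 genes were lower at an adjusted p under 0.001 in LTED-A and 28 in LTED-B, against 2 and 1 that were higher. Among all genes, 18.6% were then lower and 20.4% higher in LTED-A, and 16.8% and 17.2% in LTED-B. In LTED-D 9 of the 44 were higher and 12 lower, where 20.5% and 16.3% of all genes were, and in LTED-E 13 were higher and 7 lower, where 18.7% and 18.2% were. Single LTED-A and LTED-B libraries had medians of -0.31 to -0.18 against the parental mean, and single parental libraries of -0.04 to 0.03.

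FEN1 was lower in both LTED-A and LTED-B. It was at 188, 178 and 186 normalized CPM in MM134 parental, at 114, 118 and 119 in LTED-A, 113, 117 and 118 in LTED-B, 127, 127 and 129 in LTED-D, and 167, 166 and 169 in LTED-E. Every variant library lay under every parental one, with log2 values against parental of -0.66 ± 0.03 in LTED-A (adjusted p = 9.52e-19) and -0.66 ± 0.03 in LTED-B (adjusted p = 1.46e-18), -0.52 in LTED-D and -0.13 in LTED-E. The neighbours' median in LTED-B was 0.32, in the other direction. LIG1, at 143, 143 and 145 in parental, fell short of the fold minimum in each variant and was at 96.2 to 113 over the 12 variant libraries, all below parental.

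TYMS was at 40.6, 37.0 and 36.8 normalized CPM in MM134 parental and at 22.9, 24.4 and 24.9 in LTED-A, a log2 fold change of -0.67 ± 0.05 (adjusted p = 1.93e-11). It was at 29.5, 31.0 and 35.4 in LTED-B, 28.8, 26.6 and 26.3 in LTED-D, and 34.6, 33.8 and 35.0 in LTED-E, all below the parental libraries and none called. RRM2 was at 182, 172 and 169 in parental, 124, 122 and 120 in LTED-A, 115, 118 and 128 in LTED-B, and 116, 108 and 109 in LTED-D, but at 233, 218 and 227 in LTED-E. LTED-E thus lay above parental and the other 3 variants below it, and the LTED-D decrease of -0.64 ± 0.04 was called (adjusted p = 9.37e-15). RRM1 was at 413, 402 and 407 in parental and at 313 to 406 over the 12 variant libraries, with log2 fold changes of -0.39 to -0.02.

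RPA2, the middle subunit of RPA, was called lower in LTED-B. It was at 56.4, 53.2 and 56.4 normalized CPM in parental and at 30.0, 30.4 and 32.4 in LTED-B. Its log2 fold change of -0.83 ± 0.04 (adjusted p = 2.02e-18) was the largest decrease of the 44 genes in any of the 6 LTED comparisons, and the values in LTED-A, LTED-D and LTED-E were -0.08, 0.10 and 0.07. POLD3 was at 195, 187 and 196 in parental, 150, 149 and 151 in LTED-A, 125, 123 and 125 in LTED-B, 158, 162 and 157 in LTED-D, and 181, 183 and 186 in LTED-E. All variant libraries were below parental, and LTED-B was called at -0.63 ± 0.03 (adjusted p = 2.49e-18) with a neighbours' median of -0.31.

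Upward calls in MM134 came from 2 polymerase subunits. POLD2 was at 111, 112 and 112 normalized CPM in parental, 128, 131 and 140 in LTED-A, 120, 122 and 118 in LTED-B, 184, 185 and 190 in LTED-D, and 141, 145 and 148 in LTED-E. No variant library overlapped the parental ones, and the LTED-D increase of 0.76 ± 0.03 (adjusted p = 1.74e-19) stood beside a neighbours' median of 0.45. POLE2 was at 14.0, 13.9 and 15.5 in parental, 19.1, 18.3 and 18.9 in LTED-A, 16.7, 18.2 and 17.4 in LTED-B, 15.7, 16.7 and 14.7 in LTED-D, and 23.1, 22.0 and 22.1 in LTED-E. LTED-D overlapped parental, the other 3 did not, and LTED-E was called at 0.64 ± 0.05 (adjusted p = 7.84e-12). RPA3 came near, with 83.6, 86.2 and 78.8 in LTED-D against 60.9, 58.2 and 56.6 in parental, at 0.51 ± 0.04 and a neighbours' median of 0.43.

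Genes of licensing and firing that rose in SUM44 were not called in MM134. CDT1 was at 29.1, 29.3 and 29.9 normalized CPM in MM134 parental and at 20.7 to 26.0 over the 12 variant libraries, all below parental, with log2 fold changes of -0.46 to -0.25. GMNN was at 47.4, 44.5 and 46.3 in parental, 37.2 to 40.9 over LTED-A and LTED-B, all below parental, and 47.3 to 52.8 over LTED-D and LTED-E. CDC7 was at 45.4, 41.8 and 45.8 in parental, at 30.3 to 33.0 over LTED-A, LTED-B and LTED-D, and at 45.6, 49.1 and 48.4 in LTED-E. GINS1 was at 63.1, 62.6 and 62.6 in parental, 58.0 to 59.6 in LTED-A, and 66.6 to 79.1 over the other 3 variants, which lay above parental.

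In the helicase, MCM5 and MCM3 marked the ends of the MM134 range. MCM5 was at 127, 128 and 132 normalized CPM in parental, 138, 139 and 146 in LTED-A, 127, 134 and 128 in LTED-B, 152, 161 and 159 in LTED-D, and 167, 164 and 170 in LTED-E, with log2 fold changes of 0.01 to 0.38. MCM3 was at 327, 313 and 322 in parental and lowest in LTED-B, at 228, 225 and 233, with log2 fold changes of -0.48 to -0.06. Of the ORC genes, ORC5 was at 29.2, 27.4 and 29.6 in parental and highest in LTED-D, at 38.0, 37.0 and 38.0, and ORC6 at 26.2, 25.8 and 33.2 in parental and lowest in LTED-B, at 21.5, 24.6 and 21.3. PCNA was at 266, 256 and 261 in parental and lowest in LTED-A, at 181, 189 and 189, a log2 fold change of -0.49 ± 0.03 below the fold minimum.

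**Figure D4:**
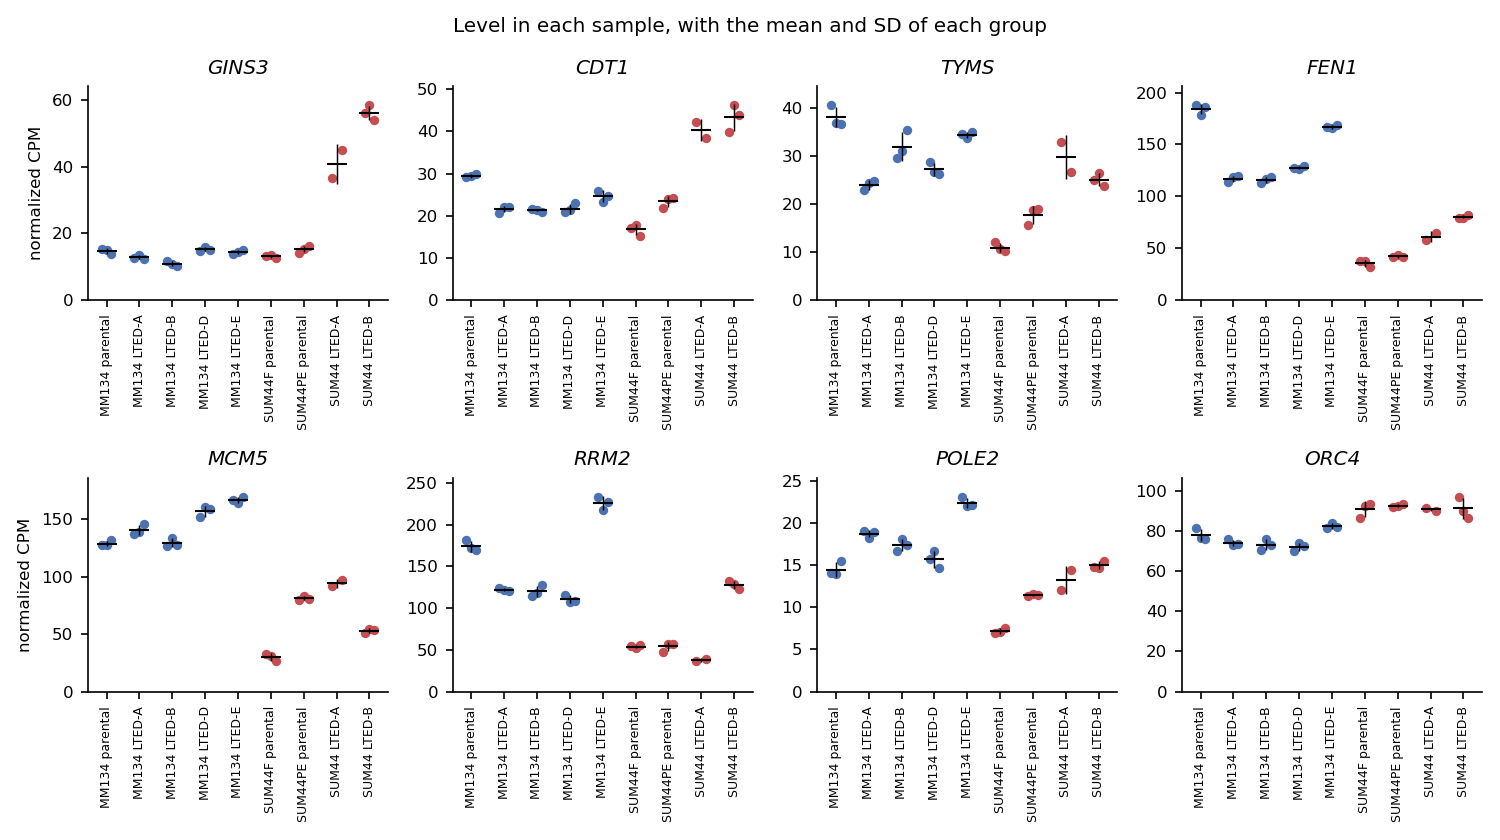
Points are samples, in normalized CPM on an axis from 0, for 8 of the genes; the short line and bar are the mean and SD of each group, with MM134 groups in blue and SUM44 groups in red. GINS3, CDT1, TYMS and FEN1 rise in both SUM44 variants while CDT1, TYMS and FEN1 are lower in the MM134 variants than in parental; RRM2 is lowest in SUM44 LTED-A and highest in MM134 LTED-E; ORC4 stays level.

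The MM134 variants also differed from each other. A test over the 4 variants was called for 41 of the 44 genes, where 44.7% of all genes were called, with no minimum on the fold change. The 3 genes that did not pass were RPA1, ORC6 and GINS4. LTED-E libraries were above all those of the other 3 variants for CDC7, POLE2, PCNA, FEN1 and RRM2, among others.

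A test of the change itself between the cell lines called 36 of the 44 genes as more positive in SUM44 (mean of 2 variants) than in MM134 (mean of 4), and 0 as less positive. DESeq2 called 36 and 0, where it called 3223 and 2944 of all 29126 genes, and 0 were less positive at an unadjusted p under 0.05. Among all 29200 genes tested by edgeR, 10.2% were called more positive and 11.0% less. The median difference of the 44 genes was 0.94, against -0.06 over all genes. Mean changes were above 0 in SUM44 for all 44 genes and below 0 in MM134 for 34 of them. The MM134 mean pools unlike variants: 8 genes were above 0 in LTED-A, 7 in LTED-B, 24 in LTED-D and 27 in LTED-E. Lower than parental in all 4 variants were 11 genes, and higher in all 4 were 6. How many of all genes have these signs was not counted. Without the SUM44F replicate that carried fibroblast markers, 36 were called. With SUM44PE as the SUM44 parental line, 27 were called, with a median of 0.71, where 11.4% of all 28786 genes were more positive and 10.9% less.

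The 6 largest differences spanned initiation, elongation and nucleotide supply. GINS3 differed by log2 2.01 ± 0.09 (adjusted p = 2.44e-17), and its MM134 libraries were at 13.7 to 15.2 normalized CPM in parental and 10.3 to 16.0 in the variants. CDT1 differed by 1.73 ± 0.07, TYMS by 1.71 ± 0.09, FEN1 by 1.49 ± 0.06, POLA2 by 1.49 ± 0.07 and CDC6 by 1.39 ± 0.07, with adjusted p between 1.8e-17 and 2.28e-15. CDC6 fell short of a call in MM134, at 118, 117 and 118 in parental and 80.6 to 112 in the variants. POLA2 was at 28.7, 25.2 and 24.7 in MM134 parental and 19.4 to 24.3 in the variants.

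The 8 genes that did not pass were ORC2, ORC4, ORC5, MCM4, PRIM2, POLD2, RFC1 and RPA3. Some of them had a small p and missed the fold minimum, such as MCM4 at 0.52 ± 0.06 (adjusted p = 5.87e-08), POLD2 at 0.47 ± 0.07 (adjusted p = 9.31e-07) and PRIM2 at 0.53 ± 0.07 (adjusted p = 1.05e-06). For ORC4 the difference was 0.06 ± 0.06. With SUM44PE as the SUM44 parental line, the differences of MCM5 and POLE2 turned to -0.36 and -0.0077, and those of ORC3, ORC6, MCM6, MCM7, POLE, RFC2 and RPA2, at 0.12 to 0.53, were no longer called.

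**Figure D5:**
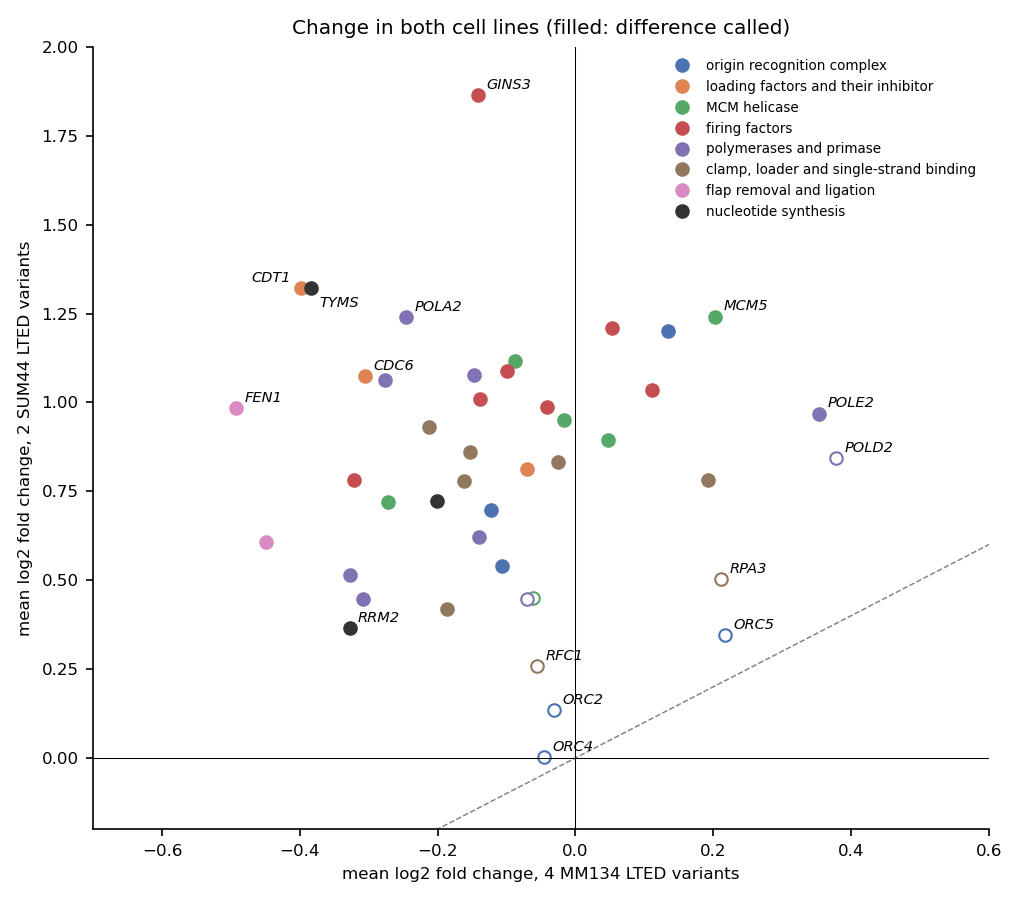
Each point is 1 of the 44 genes, coloured by role, at its mean log2 fold change over the 4 MM134 variants (horizontal) and the 2 SUM44 variants (vertical); filled points passed the test of the difference and the dashed line marks equal change. All points lie above 0 on the vertical axis, with ORC4 at 0.0031 the lowest, and 34 lie left of 0; CDT1, TYMS and FEN1 are far up and left, and POLD2 and POLE2 far right.

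Before LTED, the lines started from different levels. MM134 parental exceeded SUM44F parental for 27 of the 44 genes and was lower for 1, where 19.0% of all genes were called higher in MM134 and 19.4% lower, and the median over the 44 was 0.83. FEN1, at 178 to 188 normalized CPM in MM134 and 31.8 to 37.4 in SUM44F, showed the largest gap, log2 2.36 ± 0.06 (adjusted p = 6.6e-24), beside a neighbours' median of 0.94 whose part was not tested. Even after its rise, FEN1 in SUM44 LTED-B stayed under every MM134 library, at 79.3 to 82.0. The gene called lower in MM134 was GINS4, at 17.7, 16.3 and 16.6 in MM134 parental and 63.9, 65.5 and 58.2 in SUM44F, a log2 fold change of -1.91 ± 0.06 (adjusted p = 1.44e-21) beside a neighbours' median of -0.31. GINS4 then rose in SUM44 to 122 and 142 in LTED-A and 114, 117 and 117 in LTED-B, while the MM134 variants remained at 15.3 to 18.0. GINS3, its partner in the complex, had similar levels in both parental lines, at 13.7 to 15.2 and 12.7 to 13.6.

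Levels of different genes were compared on a length-scaled measure, counts per kilobase of merged exons, scaled to a fixed total in each library. On it PCNA led with a mean of 272 over the 9 groups, followed by RRM1 at 116, and GINS3 and POLA2 were at the end of the order. In MM134 parental, PCNA was at 364 and POLA2 at 4.3, and in SUM44F parental at 216 and 2.0. GINS4 was at 6.1 and GINS3 at 5.6 in MM134 parental, side by side, and at 20.8 and 4.7 in SUM44F parental. In SUM44 LTED-B they were at 34.1 and 17.6. The measure serves to order genes within a group and not to compare groups, since it can run against the normalized CPM. GINS1 was at 15.3 on it in MM134 parental and at 12.3 in MM134 LTED-D, where its normalized CPM lay above parental.

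Other genes of replication and nucleotide supply were taken from lists that do not include the 44. Their members were chosen with results of these data known. Neighbouring genes were read for the 44 genes only, so the part of neighbours in the changes of these other genes was not tested. Of 26 further replication fork and licensing genes, 16 rose and 1 fell in SUM44 LTED-A and 19 rose and 0 fell in LTED-B, with medians of 0.74 and 0.78, where 7.26% of all genes were called higher and 8.41% lower in the former and 9.19% and 9.58% in the latter. CDC45, the helicase partner of MCM2-7 and GINS, rose by log2 2.22 and 0.97 but was also 1.36 higher in SUM44PE than in SUM44F. TICRR, which loads it, rose by 1.54 and 1.10, and RECQL4, a helicase of the same step, by 1.27 and 1.26. At the other end, MCM9 was called lower in LTED-A at -0.59 and was at 0.05 in LTED-B, and POLD4 and POLE4 had values between -0.27 and 0.00 that were not called. In MM134 1, 1, 2 and 0 of the 26 rose in the variants in the order A, B, D, E, and 1, 1, 0 and 0 fell, where 8.34% to 10.6% of all genes were called higher and 7.95% to 10.5% lower. POLD4, the smallest subunit of polymerase delta, was called higher in the first 3, at 0.67, 0.78 and 0.71.

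Genes that control E2F and licensing were mixed. Of 23, 8 rose and 3 fell in SUM44 LTED-A, 12 rose and 1 fell in LTED-B, and the medians were 0.33 and 0.70, beside the same shares of all genes, 7.26% and 8.41% in LTED-A and 9.19% and 9.58% in LTED-B. CCNA2, which encodes the S phase cyclin A2, rose by 1.60 and 1.06, FBXO5, an inhibitor of the anaphase-promoting complex, by 1.38 and 0.89, and E2F1 by 1.08 and 1.05. E2F5, a repressor E2F, fell by 1.16 and by 0.60 on the log2 scale, and RBL2, which encodes the pocket protein p130, and CUL4A, a ubiquitin ligase scaffold, fell in LTED-A, with values of -0.74 and -1.15, and were at -0.53 and -0.12 in LTED-B. In MM134 1, 0, 1 and 2 of the 23 rose in the variants in the order A, B, D, E, and 3, 1, 0 and 0 fell, where 8.34% to 10.6% of all genes were called higher and 7.95% to 10.5% lower. E2F1 was between -0.35 and 0.06 there and was not called. CCNE1, which encodes cyclin E1, was called higher in MM134 LTED-A, LTED-D and LTED-E, at 0.79, 1.13 and 1.06, and was at 0.22 in LTED-B. In SUM44 CCNE1 was at -0.44 in LTED-A, not called, and rose by 1.11 in LTED-B. E2F2 was called lower in MM134 LTED-A and LTED-B, at -0.75 and -0.78.

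Nucleotide synthesis beyond TYMS, RRM1 and RRM2 rose in part. Of 34 genes tested in SUM44, 17 rose and 1 fell in LTED-A and 17 rose and 0 fell in LTED-B, with medians of 0.59 in both, where 7.26% and 9.19% of all genes were called higher and 8.41% and 9.58% lower. SHMT2, the mitochondrial serine hydroxymethyltransferase, rose by 1.45 and 1.33, NME1, a nucleoside diphosphate kinase, by 0.84 and 1.75, and TK1, the S phase thymidine kinase, by 1.03 and 1.24. RRM2B, the p53-inducible stand-in for RRM2, fell in LTED-A, with a value of -0.63, and was at -0.39 in LTED-B, while TK2 and CMPK1 had values between -0.51 and 0.15 that were not called. In MM134 33 were tested, of which 6, 4, 5 and 6 rose in the variants in the order A, B, D, E, and 1, 1, 0 and 2 fell, where 10.6%, 8.34%, 9.84% and 8.93% of all genes were called higher and 10.1%, 7.95%, 8.17% and 10.5% lower. PRPS2 rose there by 2.68, 2.57, 2.69 and 3.42 and ADSS2 by 1.19, 0.90, 0.85 and 1.22. Neither was called in SUM44, with values of -0.18 and 0.57 for PRPS2 and 0.32 and -0.05 for ADSS2. SHMT2 was also called higher in MM134 LTED-E, at 0.59, and NME1 in LTED-D and LTED-E, at 0.61 and 0.74.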

How the data were processed

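RNA-Seq of 27 libraries (TruSeq Stranded Total RNA, HiSeq 2000) was used. The authors quantified reads with Salmon 0.6.0 against Ensembl 82 transcripts on hg38 and deposited estimated counts per gene; trimming and the strand setting are not given in the sources used here, so reads of genes that overlap on opposite strands may not be separated. Estimated counts were rounded. Symbols and positions came from GENCODE v44 on hg38, where 56434 of 60619 IDs matched. Library totals of 28583554 to 134882175 set the precision, and the lowest count of any of the 44 genes was 321.

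Low genes were removed (filterByExpr), TMM factors were applied, and their differences were tested by edgeR 4.0.16 in R 4.3.3 (robust quasi-likelihood), fitting all groups of a cell line together, or both lines for comparisons between them. p-values were Benjamini-Hochberg adjusted over all genes tested, and a call needed a fold change over 1.5 and an adjusted p under 0.001. The test over the 4 MM134 variants had no fold minimum. Errors are standard errors. Levels are TMM-normalized CPM over 26 samples, after SUM44 LTED-A replicates 2 and 3 were merged. The neighbours of a gene are the 40 nearest genes of at least 5 CPM. Promoters came from RefSeq (GRCh38.p14). The fit was tested on simulated data. Alternatives included DESeq2 1.42.0, other filters and thresholds, a replicate block, leaving out each sample, SUM44PE as parental and, chosen after seeing the data, a fit without the robust estimate.

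The 44 genes, their roles and the other lists were chosen with earlier results of these data known. Values per sample are given for the genes with the largest and smallest mean change in each role and cell line, those called against the majority, and the 6 largest differences between lines. RRM2 and MCM5 fall under it too; other genes are given by range, and POLE2 and TYMS in SUM44PE were added after their values were seen.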

Additional observations from a re-analysis of the deposited data

Results flagged for a closer look

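The change from parental to LTED differed between SUM44 and MM134 by an interaction test for 36 of the 44 genes. The log2 difference, SUM44 mean less MM134 mean, was as follows for the genes of licensing: CDT1 1.73, CDC6 1.39, ORC1 1.08, GMNN 0.89, ORC6 0.83 and ORC3 0.66. For the helicase genes it was MCM2 1.21, MCM5 1.05, MCM3 1.00, MCM6 0.98 and MCM7 0.86. Among firing genes the values were GINS3 2.01, DBF4 1.19, MCM10 1.17, GINS2 1.16, CDC7 1.12, GINS4 1.04 and GINS1 0.93. The polymerase and primase genes gave POLA2 1.49, POLD1 1.35, PRIM1 1.23, POLD3 0.85, POLE 0.77, POLA1 0.76 and POLE2 0.62. Clamp, loader and RPA genes gave PCNA 1.15, RFC5 1.02, RPA1 0.95, RFC4 0.87, RPA2 0.62 and RFC2 0.60. The remaining values were FEN1 1.49, LIG1 1.07, TYMS 1.71, RRM1 0.93 and RRM2 0.70. With SUM44PE in place of SUM44F, 27 genes were called: ORC3 0.12, ORC6 0.50, MCM6 0.53, MCM7 0.47, POLE 0.44, RFC2 0.46 and RPA2 0.46 were not, and MCM5 was at -0.36 and POLE2 at -0.0077.

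Between SUM44 LTED-A and LTED-B the change from SUM44F differed for MCM5, by log2 0.83, and for RRM2, by log2 -1.76. Over the 4 MM134 variants 41 of the 44 genes differed, at the background given for that test.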

How the results depend on the processing

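Over 352 gene and comparison pairs and 8976 alternative values, 8719 stayed on the same side of the threshold, 131 lost a call, 123 gained one and 3 reversed. Without a fold minimum, MM134 LTED-A had 2 genes higher and 25 lower, LTED-B 1 and 28, LTED-D 9 and 12, and LTED-E 13 and 7. Under that rule SUM44 LTED-A had 1 lower, LTED-A against LTED-B 2 higher, SUM44PE against SUM44F 11 higher, and MM134 against SUM44F parental 2 lower. Of all genes, 2463 of 26834 were then lower in SUM44 LTED-A, and 1277 were higher in LTED-A against LTED-B. In SUM44PE 1250 of 27457 were higher, and 7046 of 29200 were lower in MM134 against SUM44F parental. With a 2-fold minimum, 0 were lower in MM134 LTED-A, LTED-B and LTED-D and 0 higher in LTED-D and LTED-E, 11 were higher in SUM44 LTED-A, 16 in LTED-B, 0 in LTED-A against LTED-B, 1 in SUM44PE, and 20 in the difference between lines. In the same order, 1622, 1334, 1352, 1496 and 1394 of all 26061 genes were called in MM134. In SUM44 it was 917, 998 and 656 of 26834, then 380 of 27457 in SUM44PE and 1743 of 29200 in the difference. The moves under either fold rule follow from the threshold itself.

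With SUM44PE as parental, 19 genes rose in SUM44 LTED-A, and 21 rose and 1 fell in LTED-B, and 27 were called in the difference between lines; MCM5 reversed to -0.62 in LTED-B and -0.36 in that difference, and POLE2 to -0.0077 in the latter, and the cause was not tested. Leaving out each sample gave 28 to 33 genes higher in SUM44 LTED-A and, in LTED-B, 32 to 35, with 32 to 38 in the difference, 39 to 43 differing among MM134 variants, and 1 to 4 lower in LTED-A than in LTED-B, the 4 being without the merged LTED-A replicates. A lone LTED-A sample was then assumed to vary like the other groups. With only the groups compared in the fit, 28 genes rose in SUM44 LTED-A and 35 in LTED-B. Of all genes, 1547 of 26511 and 2401 of 24998 were called higher in these fits. ORC3, CDC7, POLE and RRM1 lost the LTED-A call there.

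Same-numbered samples did not deviate together (mean correlations of -0.0361 to 0.0575 between groups; SUM44 LTED-A, whose replicates were merged, was not in this check), so the numbers do not pair them. The replicate block left the counts at 32 and 35 higher in SUM44 LTED-A and LTED-B and 36 in the difference, and called 28 genes higher in MM134 than in SUM44F parental in place of 27 and 40 among MM134 variants in place of 41.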

Other observations

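Genes of G2 and mitosis, a list chosen with results of these data known, also rose in SUM44. Of 16, 14 rose and 0 fell in LTED-A and in LTED-B (7.26% and 9.19% of all genes were called higher), with median log2 fold changes of 1.05 and 1.22. CENPE, a kinetochore motor, rose by 2.13 and 1.23, CDC20, an activator of the anaphase-promoting complex, by 1.35 and 1.34, and AURKB, the chromosomal passenger kinase, by 1.31 and 1.27. CENPF, a kinetochore protein, was at 0.41 in both and not called. MKI67 was not called either, at 1.33 and 0.88, nor was it in any MM134 variant, with values of -0.55 to 0.51. In MM134 4, 2, 3 and 1 of the 16 fell in the variants in the order A, B, D, E, and 0 rose, where 10.1%, 7.95%, 8.17% and 10.5% of all genes were called lower and 10.6%, 8.34%, 9.84% and 8.93% higher. TOP2A, the topoisomerase of dividing cells, fell in all 4, with values of -1.07, -0.60, -0.80 and -0.65, and CDK1, the mitotic kinase, in the first 3, with values of -0.90, -0.74 and -0.78.

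Of 9 genes of chromatin assembly behind the fork, 5 rose and 0 fell in each SUM44 variant, where 7.26% and 9.19% of all genes were called higher and 8.41% and 9.58% lower. CHAF1A, the large subunit of the CAF-1 histone chaperone, rose by 1.27 and 1.01, CHAF1B, its partner, by 0.94 and 1.05, and UHRF1, which recruits DNMT1 to hemimethylated DNA, by 0.98 and 1.21. NASP, ASF1A and RBBP4, histone-binding proteins, had values between -0.14 and 0.46 and were not called. In MM134 2 fell in LTED-A and 1 in LTED-B (10.1% and 7.95% of all genes were called lower), and UHRF1 was among them both times, with values of -0.87 and -0.71.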
